A study of Saccharomyces cerevisiae with 6 samples.

Results

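The 26S proteasome is the protease that breaks down proteins tagged with ubiquitin. Its 20S core is a barrel of alpha and beta rings, in which the beta subunits Pre3, Pup1 and Pre2 carry the active sites. Its 19S cap has a base, with a ring of Rpt ATPases that unfolds and threads substrates, and a lid, in which Rpn11 removes ubiquitin. In budding yeast the subunit genes share a promoter element, called PACE (proteasome-associated control element), that is bound by the transcription factor Rpn4. Rpn4 is itself a short-lived substrate of the proteasome, which forms a feedback loop on subunit synthesis.

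The transcripts of 32 subunit genes were followed: 14 genes of the 20S core (PRE1 to PRE10, PUP1 to PUP3 and SCL1) and 18 genes of the 19S cap (RPT1 to RPT6, RPN1 to RPN3 and RPN5 to RPN13). They were chosen by systematic name from a table of 7554 transcripts, and 31 of them were found. RPT1 expression was not analysed here. The dChr strain, yMH007 of budding yeast (Saccharomyces cerevisiae), contains dChr, a synthetic chromosome whose DNA stores data. It was compared with the control strain yMH104, which has only an empty plasmid. Each strain has 3 libraries of total RNA, from cells grown at 30 °C in SC-Ura (synthetic complete medium without uracil) and collected at an optical density of 1.0 to 1.2. The labels give no other allele of either strain, and nothing says that the 3 libraries came from separate cultures. The p-values therefore measure the spread between these libraries, which may be technical. Values are TPM, the share of a library taken by a transcript per unit of its length, from which sequencing depth cannot be read. In a bulk culture, fewer cells with a transcript and less of it per cell cannot be told apart.

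The upstream sequence was read first, because it is what these genes have in common. The PACE motif, GGTGGCAAA on either strand, was searched in the 300 bases before the start codon of every nuclear protein-coding gene of the R64 reference (the assembly that sacCer3 names). It was present before 27 of the 32 subunit genes (84.4%), against 73 of all 6008 protein-coding genes (1.22%), which include these 27. The element is already known as one that the subunit genes share, so these shares describe the genes and test nothing. Each of the 27 had a single match, placed between 76 and 175 bases before the start codon, with a median of 112. Sites with at most 1 base changed were present before all 32 subunit genes, against 7.72% of all genes. A match is a description of these letters and does not show that Rpn4 was bound.

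The first set shows the motif, in capitals, with 25 bases on either side, for 6 genes whose transcripts are described here. Sequences are given in the direction of the gene, 5′ to 3′, so TTTGCCACC is the same motif on the opposite strand. RPN6 was read at chrIV:286775-286833 and RPN2 at chrIX:220786-220844, both on the minus strand. RPN7 was read at chrXVI:742275-742333, PRE2 at chrXVI:732169-732227, PRE3 at chrX:435020-435078 and RPT5 at chrXV:544840-544898, all on the plus strand.
RPN6: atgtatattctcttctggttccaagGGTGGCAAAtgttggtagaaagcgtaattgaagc
RPN2: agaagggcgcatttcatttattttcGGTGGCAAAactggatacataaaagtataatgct
RPN7: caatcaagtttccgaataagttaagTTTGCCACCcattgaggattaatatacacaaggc
PRE2: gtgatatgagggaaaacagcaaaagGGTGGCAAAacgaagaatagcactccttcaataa
PRE3: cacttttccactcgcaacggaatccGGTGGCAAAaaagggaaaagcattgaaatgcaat
RPT5: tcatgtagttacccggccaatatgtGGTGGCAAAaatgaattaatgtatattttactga

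The second set holds the 5 subunit genes without an exact match, with their single near match in capitals. PRE5, PUP1 and RPN8 differ from the motif by G1A, and RPN10 and RPN13 by A7G, with positions counted from 1 at the 5′ end of GGTGGCAAA. PRE5 was read at chrXIII:901537-901595 and RPN10 at chrVIII:498953-499011 on the plus strand. PUP1 was read at chrXV:631876-631934, RPN8 at chrXV:817070-817128 and RPN13 at chrXII:965641-965699 on the minus strand.
PRE5: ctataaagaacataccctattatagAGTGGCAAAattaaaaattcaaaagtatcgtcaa
PUP1: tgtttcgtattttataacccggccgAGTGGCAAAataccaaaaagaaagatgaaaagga
RPN8: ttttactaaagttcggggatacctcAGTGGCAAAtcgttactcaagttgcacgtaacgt
RPN10: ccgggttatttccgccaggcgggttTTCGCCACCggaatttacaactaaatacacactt
RPN13: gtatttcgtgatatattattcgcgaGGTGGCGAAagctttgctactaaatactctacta

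**Figure D1:**
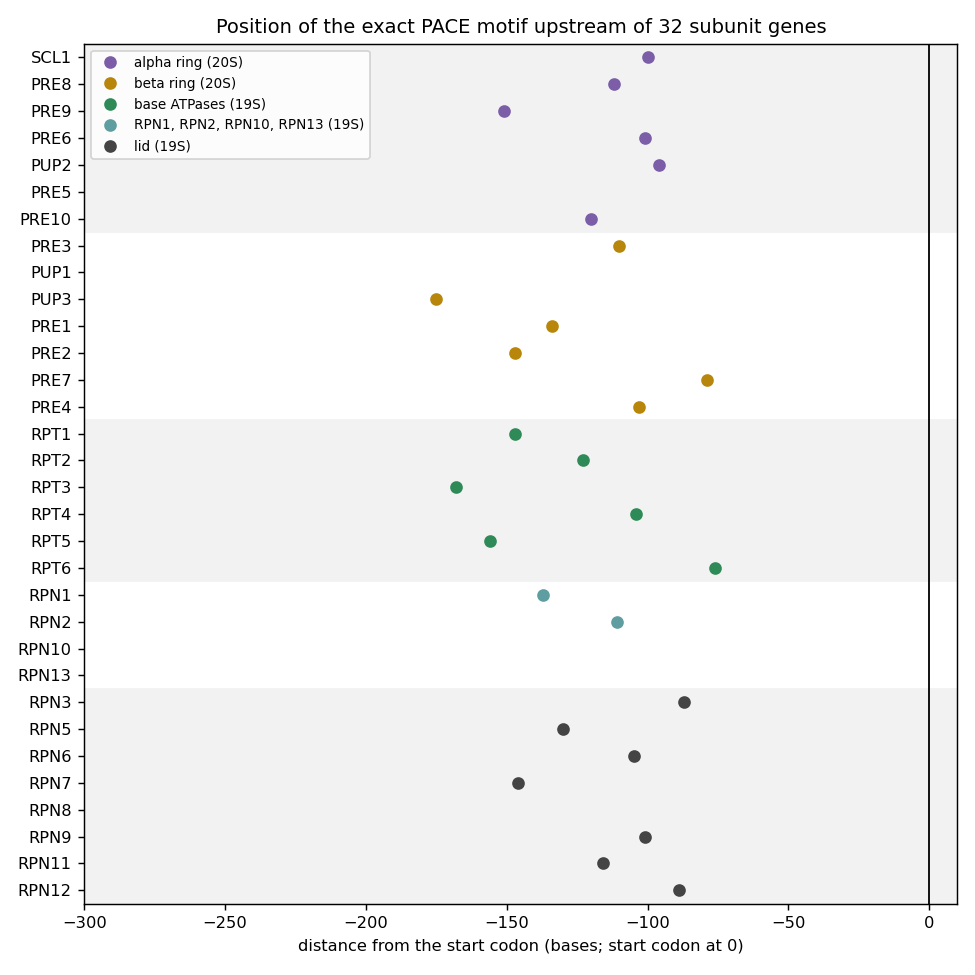
Distance of the exact PACE motif from the start codon (bases, horizontal axis) for each of the 32 subunit genes (vertical axis, coloured by place in the complex). The 27 points lie between 76 and 175 bases upstream, and 5 genes have no point because they hold no exact match.

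The listed levels of the subunit genes covered a wide range. On the TPM scale the 31 genes had a median level of 24.1 over the 6 libraries, with 4 genes under 5 TPM and 7 over 50 TPM. The highest level was that of RPN1 (YHR027C), a scaffold of the base that docks ubiquitin-like domains. It stood at 146, 152 and 135 TPM in dChr libraries 1, 2 and 3, against 113, 141 and 129 TPM in control libraries 1, 2 and 3. The strains overlapped, since control library 2 was above dChr library 3. The lowest was RPN13, a ubiquitin receptor of the base, at 1.57, 1.00 and 1.83 TPM in dChr libraries, and 1.96, 0.651 and 0 TPM were listed for control libraries. The 0 can be a failed estimate, so the level of RPN13 is not read as low expression. Among the 26 genes with no library far from the others of its strain, the highest mean level (RPN1) was 65.6 times the lowest (PRE6). PRE6 averaged 2.08 TPM, and values this low can also be failed estimates, so the ratio is not read as a range of expression. Over the 31 genes Spearman's rho between level and coding length was 0.21, a description of genes that share the same libraries.

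By place in the complex, median levels were 34.1 TPM for the 7 alpha ring genes and 15.9 TPM for the 7 beta ring genes. They were 6.95 TPM for the 5 measured ATPase genes and 36.7 TPM for the 8 lid genes. For the 4 other base genes, RPN1, RPN2, RPN10 and RPN13, the median was 45.6 TPM, with means from 1.17 to 136 TPM. The lowest gene of the alpha ring was PRE6, at 2.64, 2.22 and 0.808 TPM in dChr libraries, with 2.47, 2.74 and 1.58 TPM for control libraries. These 8 lid genes lay between 10.8 TPM (RPN5) and 79.8 TPM (RPN3), so none of the 8 had a mean under 5 TPM. SEM1, a lid subunit given below with the proteasome-bound factors, is not among them.

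**Figure D2:**
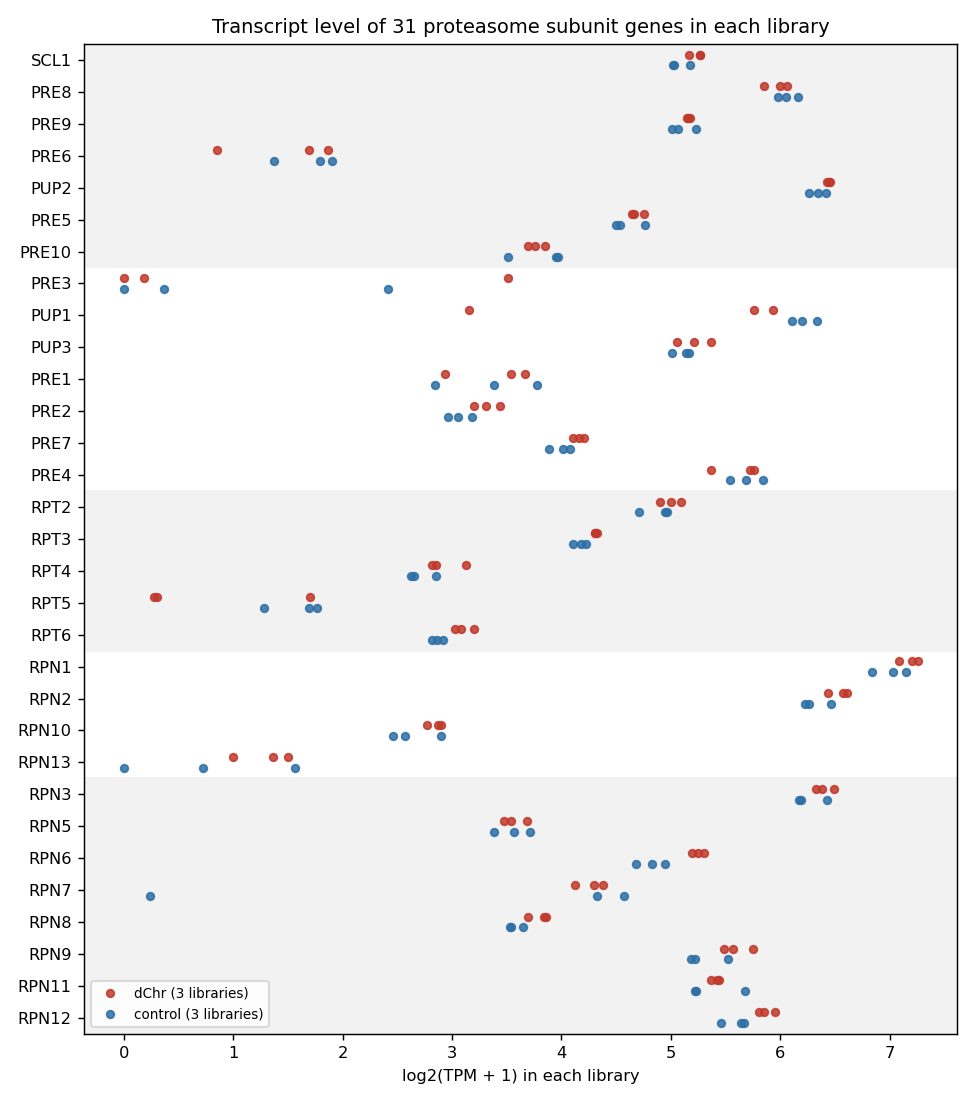
Level of each of the 31 measured subunit genes as log2(TPM + 1) (horizontal axis), with 1 point per library, dChr in red above control in blue, and shaded bands for alternate parts of the complex. Most genes keep to a narrow range in all 6 libraries, while PRE3, PUP1, RPT5, RPN7 and RPN13 have a library far from the others of its strain.

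For 5 subunit genes, a library lay at least 4-fold from both others of its strain. This is 16.1% of the 31 genes, against 5.91% of all tested transcripts and 2.07% of tested protein-coding genes. PRE3 (YJL001W), the catalytic beta subunit with caspase-like activity and the only subunit gene here with 2 coding exons, was listed at 0, 10.4 and 0.136 TPM in the dChr libraries. In the control libraries it was at 0.289, 0 and 4.34 TPM. PUP1 (YOR157C), the subunit with trypsin-like activity, was at 60.1, 7.91 and 53.2 TPM in the dChr libraries, against 68.0, 79.9 and 72.4 TPM in the control. The dChr libraries were all below the control libraries, with dChr library 2 far below. RPT5, an ATPase of the base, was at 0.236, 2.26 and 0.206 TPM in the dChr libraries and at 1.42, 2.39 and 2.23 TPM in the control. RPN7, a lid subunit, was at 16.4, 19.8 and 18.7 TPM in the dChr libraries and at 19.1, 22.7 and 0.182 TPM in the control. These genes are essential for growth except RPN13. For PRE3, RPT5, RPN7 and RPN13, values of 0 or near it can be failed estimates, so no strain difference is read from them. This reason does not cover PUP1, whose lowest value was 7.91 TPM. Its dChr libraries at 60.1 and 53.2 TPM also lay below every control library. PUP1 had a log2 fold change of -1.26 ± 0.71 (SE) and was not called (limma adjusted p = 0.304). Without dChr library 2 its log2 fold change was -0.37, and it was not called in any of the 19 alternatives (limma adjusted p from 0.134 to 0.456). Why dChr library 2 was so far below was not tested. None of the 5 genes passed the test, with limma adjusted p between 0.270 (RPT5) and 0.891 (PRE3). Without dChr library 2, RPT5 was called lower in the dChr strain by -1.29 on the log2 scale (limma adjusted p = 0.0342).

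The strains were compared gene by gene with limma on log2(TPM + 1), fitted to the 5938 transcripts that averaged 1 TPM or more over the 6 libraries, and a gene was called at an adjusted p below 0.05. Of the 31 subunit genes 1 rose in the dChr strain, RPN6, where 4.19% of all tested transcripts rose. None fell, where 9.16% of all tested transcripts fell. At an unadjusted p under 0.05 RPN6 and RPN12 were higher (2 of 31), where 9.85% of all tested transcripts were, and 0 were lower, where 18% were. In this fit the share of subunit genes that were higher was thus not above that of all transcripts at either threshold. Under other scalings of the libraries, given below, it was above at the adjusted threshold. The 31 genes had a median log2 fold change of 0.14, with 25 above 0 and 6 below, while the median of all tested transcripts was -0.04 and 44.4% of them were above 0. Without mitochondrial and non-coding transcripts the median was 0.064, with protein-coding genes alone it was 0.072, and in both cases 21 of the 31 were above 0, since PRE1, PRE9, RPN5 and RPN11 lay below it. The 26 genes without a library far from its strain had a median of 0.14, and their 95% intervals all lay between -1 and 1 on the log2 scale. For 18 of these 26 the interval lay between -0.5 and 0.5.

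RPN6 (YDL097C), a lid subunit that holds the lid, the ATPase ring and the core together, was the gene called. It stood at 37.1, 38.5 and 35.7 TPM in dChr libraries 1, 2 and 3, against 27.4, 29.9 and 24.6 TPM in control libraries 1, 2 and 3. All dChr libraries were above all control libraries. The log2 fold change was 0.43 ± 0.10 (SE), a 1.35-fold difference, with a limma adjusted p of 0.0324. The gene lies on chromosome IV from 285391 to 286695 on the minus strand of R64, in 1 coding exon, with no overlapping gene in RefSeq. Its call was lost without dChr library 1, 2 or 3 or control library 1 or 3 (limma adjusted p from 0.0749 to 0.116), and kept without control library 2 (0.0315). It was also lost without an intensity trend (0.0534) and without assembled transcripts (0.145), and the log2 fold change lay between 0.35 and 0.50 over the 19 alternatives run.

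The other lid genes also had positive log2 fold changes, from 0.01 to 1.22, the highest being that of RPN7 with its control library near 0, which was -0.18 without that library. Without mitochondrial and non-coding transcripts RPN5 and RPN11 turned to -0.07 and -0.05, and likewise with protein-coding genes alone (-0.06 and -0.05). They also turned without certain libraries, RPN5 without dChr library 1 and both without control library 3, and RPN11 without control library 1. RPN12, a lid subunit whose incorporation completes the lid, is given in full because of its unadjusted p, a choice made after its values were seen. It was at 56.8, 55.0 and 60.9 TPM in the dChr libraries, against 48.8, 43.1 and 50.0 TPM in the control, again with no overlap between strains. The log2 fold change was 0.28 ± 0.09 (SE, limma adjusted p = 0.103). RPN5 was at the low end of the lid, at 11.8, 10.6 and 10.1 TPM in the dChr libraries and at 12.1, 10.9 and 9.44 TPM in the control. Its log2 fold change of 0.01 has a 95% interval from -0.28 to 0.30.

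In the base, 4 of 5 measured ATPase genes were above 0. RPT6 had the highest log2 fold change of them, with 8.22, 7.13 and 7.47 TPM in the dChr libraries and 6.56, 6.04 and 6.25 TPM in the control. Its strains did not overlap, and the log2 fold change was 0.24 ± 0.10 (SE, limma adjusted p = 0.194). The scaffold genes RPN1 and RPN2 had log2 fold changes of 0.18 and 0.22 (limma adjusted p = 0.339 and 0.207), and RPN10, a ubiquitin receptor between base and lid, had 0.21 (0.413). RPN1 was the lowest and RPN13 the highest of these 4 genes (0.52, limma adjusted p = 0.465).

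In the 20S core 9 of 14 genes were above 0, with a median log2 fold change of 0.07, where 16 of the 17 measured cap genes were above 0, with a median of 0.22. The counts above 0 include RPN7 and RPN13 of the cap and PRE3 of the core, each with a library far from its strain. Those below 0 include RPT5 of the cap and PUP1 of the core, which also have such a library. The difference between core and cap was not tested, and PRE1 and PRE9 of the core and RPN5 and RPN11 of the cap changed sign with the feature set. PRE2 (YPR103W), the catalytic subunit with chymotrypsin-like activity, was at 8.95, 9.84 and 8.19 TPM in the dChr libraries, against 6.78, 7.28 and 8.10 TPM in the control. The strains were just separate, and the log2 fold change was 0.25 ± 0.11 (SE, limma adjusted p = 0.216), with a 95% interval from -0.02 to 0.53. In the alpha ring, which gates entry to the core, log2 fold changes ran from -0.22 (PRE6) to 0.16 (SCL1). SCL1 was at 37.5, 37.5 and 34.9 TPM in the dChr libraries and at 35.2, 31.4 and 31.6 TPM in the control, and its strains overlapped (limma adjusted p = 0.292).

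**Figure D3:**
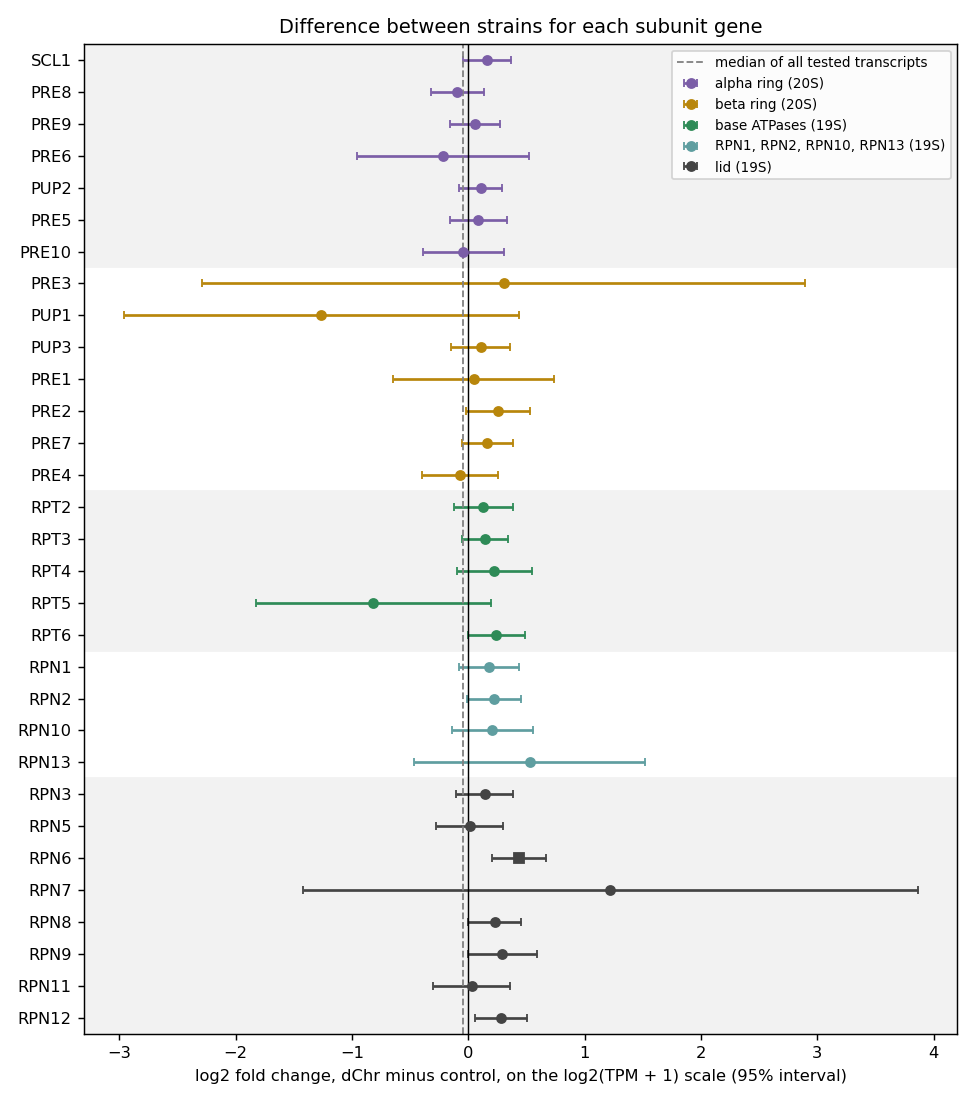
Log2 fold change of each measured subunit gene, dChr minus control, on the log2(TPM + 1) scale (horizontal axis, bars are 95% intervals from limma over 3 libraries per strain), coloured by place in the complex, with the dashed line at the median of all tested transcripts (-0.04). The square marks RPN6, the gene called, at 0.43, and the long intervals belong to genes with a library far from its strain.

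The dChr libraries were all above the control libraries for 8 of the 31 genes, where this held for 12.9% of all tested transcripts. They were all below for 1 gene, PUP1, where this held for 21.2% of all tested transcripts. Control library 2 had the highest control value for 20 of the 31 genes. Over all tested protein-coding genes that library also stood highest, with a median deviation of 0.15 from each gene's mean over the 6 libraries, on the log2 scale. The subunit genes had a median deviation of 0.03 in it.

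Set beside the protein-coding genes of the same library, the subunit genes were relatively higher in the dChr strain. The median deviation of the subunit genes minus that of the protein-coding genes was 0.16, 0.03 and 0.07 in dChr libraries 1, 2 and 3. In control libraries 1, 2 and 3 it was -0.10, -0.13 and -0.09. All dChr values lay above all control values on this scale, a description for which no p is given. The summed level of the 31 genes did overlap, at 1074, 1048 and 1002 TPM in the dChr libraries and 938, 1063 and 942 TPM in the control libraries. As a share of the TPM of protein-coding genes the sum was 0.231% ± 0.0142 for dChr libraries and 0.229% ± 0.00872 for control libraries (SD, n = 3 each). Protein-coding genes took 43.9% to 48.8% of the TPM of a dChr library and 41.2% to 45.7% of that of a control library, and the part of this in the results was not tested.

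**Figure D4:**
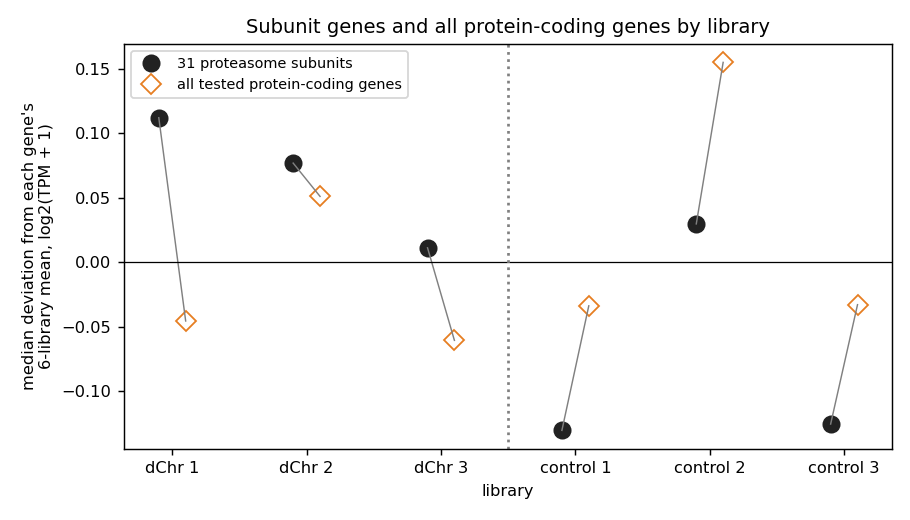
Median deviation from each gene's mean over the 6 libraries, on the log2(TPM + 1) scale (vertical axis), for the 31 subunit genes (black) and all tested protein-coding genes (orange), by library with dChr on the left. The subunit median lies above the protein-coding median in the 3 dChr libraries and below it in the 3 control libraries.

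The calls depended on how libraries were scaled. With median-ratio scaling 5 subunit genes rose and 0 fell, and the same numbers held with quantile normalization. These were RPN2, RPN3, RPN6, RPN8 and RPN9 in both cases, with log2 fold changes from 0.20 (RPN3) to 0.49 (RPN6) under median-ratio scaling and limma adjusted p from 0.00407 to 0.0403. These scalings also raised the numbers over all transcripts, to 505 higher and 637 lower and to 555 and 561, against 249 and 544 as reported. All 3 fits covered 5938 transcripts. The share of subunit genes that rose, 5 of 31, was thus above that of all transcripts under both scalings, unlike in the fit as reported. With mitochondrial and non-coding transcripts removed, the numbers over all transcripts were 178 and 647, and with protein-coding genes alone 251 and 932. The median of the subunit genes exceeded that of all tested transcripts by 0.19 on the log2 scale, and by between 0.15 and 0.22 in the 19 alternatives.

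Genes around the proteasome were taken from a list of 30, in 4 groups. RPN4, the transcription factor of the subunit genes, stood at 35.3, 38.6 and 34.4 TPM in dChr libraries 1, 2 and 3, against 13.2, 18.2 and 13.6 TPM in control libraries 1, 2 and 3. The strains were far apart, with a mean of 36.1 ± 2.19 TPM over dChr libraries and 14.99 ± 2.78 TPM over control libraries (SD, n = 3 each). The log2 fold change was 1.23 ± 0.14 (SE), a 2.34-fold difference with a limma adjusted p of 0.00279, and it was the 100th highest of 5938. RPN4 remained called in each of the 19 alternatives (limma adjusted p from 0.000207 to 0.0214). No subunit gene without a far library had a 95% interval that reached this value. RPN4 itself has no PACE motif in its 300 bases, exact or with 1 base changed.

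Of 7 genes in the regulator group, RPN4 rose and 2 fell, where 4.19% of all tested transcripts rose and 9.16% fell. The 2 were PDR1 and PDR3, which encode related zinc-finger activators of drug resistance that also act on RPN4. PDR1 was at 23.4, 26.75 and 21.3 TPM in the dChr libraries, against 31.6, 39.8 and 34.0 TPM in the control (log2 fold change -0.54 ± 0.13 SE, limma adjusted p = 0.0369). PDR3 was at 9.21, 8.93 and 7.33 TPM in the dChr libraries, against 12.7, 13.7 and 11.8 TPM in the control (-0.54 ± 0.12 SE, limma adjusted p = 0.0312). For both genes the dChr libraries were all below the control libraries, as held for 21.2% of all tested transcripts. Neither call held once any 1 library was removed (limma adjusted p from 0.0518 to 0.128 for PDR1 and from 0.0626 to 0.101 for PDR3). Their log2 fold changes in those fits stayed between -0.63 and -0.45 for PDR1 and between -0.59 and -0.45 for PDR3. Both calls were also lost without assembled transcripts (-0.51 for PDR1 and -0.52 for PDR3), and that of PDR1 without the intensity trend. YAP1 and HSF1, oxidative stress and heat shock factors that also act on RPN4, had log2 fold changes of -0.22 and 0.08 (limma adjusted p = 0.270 and 0.754). UBR2 and MUB1, whose products direct Rpn4 to degradation, had -0.06 and -0.38 (0.814 and 0.233).

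**Figure D5:**
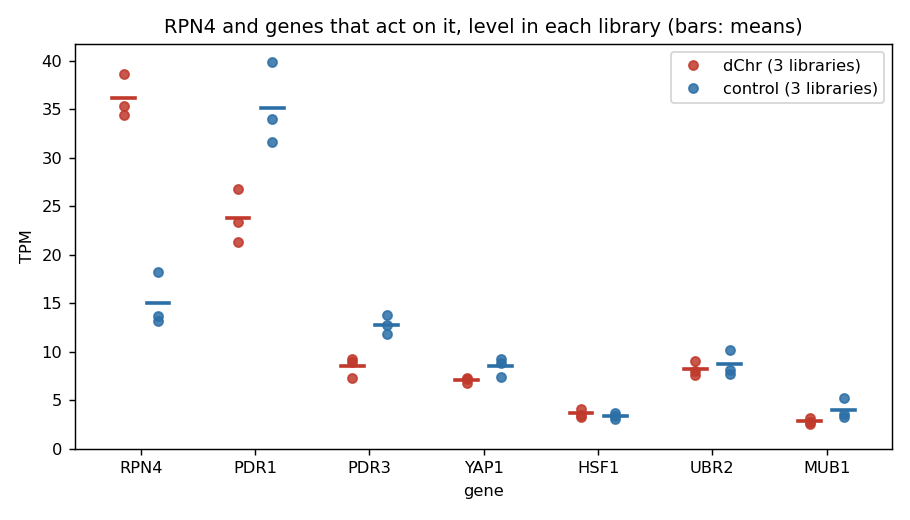
Level in TPM (vertical axis) of RPN4 and of 6 genes whose products act on it (horizontal axis), with 1 point per library, dChr in red left of control in blue, and bars at the means. RPN4 is higher in all dChr libraries, at 34.4 TPM or more against 18.2 TPM or less, and PDR1 and PDR3 are lower.

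Of 8 tested genes for assembly chaperones, which build the core and the base, 0 passed limma's adjusted threshold (RPN14 had an unadjusted p under 0.05, 1 gene in all), with 6 above 0 and a median log2 fold change of 0.17. Of all tested transcripts 4.19% rose and 9.16% fell at the adjusted threshold, and unadjusted 9.85% were higher and 18% lower. Under quantile normalization NAS2 and RPN14, which help to build the base, rose (log2 fold change 0.40 each, limma adjusted p = 0.0464 and 0.0358). UMP1, the maturation factor of the core, was at 0.20 (limma adjusted p = 0.406). POC4, the ninth of them, was listed at 0.00289 TPM or less in each library. Of 6 tested genes for proteasome-bound factors 0 passed limma's adjusted threshold and 0 had an unadjusted p under 0.05, with log2 fold changes from -0.29 (STS1) to 0.23 (UBP6), with a median of -0.09. The same shares of all tested transcripts stand beside this group, and with so few genes its 0 calls are not read as a result. SEM1, a small lid subunit in this group, was listed at 0.410 TPM or less and was not tested.

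All 7 genes for substrate delivery were above 0, with a median log2 fold change of 0.23, and 0 passed limma's adjusted threshold. UFD1 was below 0 without dChr library 1 or control library 1. Unadjusted, 2 of the 7 were higher at a p under 0.05, where 9.85% of all tested transcripts were. They were DSK2 and DDI1, which encode shuttles that carry ubiquitinated proteins to the proteasome. DSK2 was at 16.4, 16.2 and 15.8 TPM in the dChr libraries, against 11.1, 14.0 and 11.5 TPM in the control (log2 fold change 0.38 ± 0.11 SE, limma adjusted p = 0.0724). DDI1 was at 10.97, 12.6 and 11.6 TPM in the dChr libraries, against 9.12, 8.35 and 9.31 TPM in the control (0.36 ± 0.10 SE, limma adjusted p = 0.0651). Under median-ratio scaling and under quantile normalization both rose (limma adjusted p from 0.00686 to 0.0449). CDC48, the unfoldase that extracts ubiquitinated proteins, was at 282, 277 and 269 TPM in the dChr libraries, against 219, 263 and 252 TPM in the control (0.18 ± 0.09 SE, limma adjusted p = 0.284). Of the 28 listed genes that were tested 1 rose and 2 fell, where 4.19% and 9.16% of all tested transcripts did, and their median was 0.09.

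The PACE motif and the strain difference were then set side by side. The 26 measured subunit genes with an exact match had a median log2 fold change of 0.14, and the 5 without had 0.21. Each of these 5 holds a site with 1 base changed, and sites with at most 1 base changed stand before 7.72% of all protein-coding genes. Whether these 5 lack the element was not tested, so they are not taken as genes without it. Genes with a library far from its strain are in both sets, PUP1 and RPN13 among the 5 and PRE3, RPT5 and RPN7 among the 26. Outside the subunits and the 30 listed genes, 43 genes have an exact match before their start codon, and 8 of these share the site of a subunit gene. Of the 35 tested, 1 rose and 1 fell (TVS1, log2 fold change -0.73, limma adjusted p = 0.0144), where 4.19% and 9.16% of all tested transcripts did. Of the 4992 tested genes without a match, 215 rose and 486 fell. The median was -0.03 over the 35 genes with a match and -0.04 over the 4992 without. The gene with a match that rose was MPO1, an enzyme of fatty acid breakdown that shares the site of SCL1. Both MPO1 and TVS1 were named after their values were seen. MPO1 was at 24.5, 23.2 and 23.9 TPM in the dChr libraries, against 12.8, 13.4 and 9.15 TPM in the control (log2 fold change 0.98, limma adjusted p = 0.00814). It was called in all 19 alternatives (limma adjusted p from 0.0013 to 0.0481), whereas SCL1 had 0.16 and was not called. A difference between these neighbours was not tested. Among the listed genes, ECM29, YAP1 and CDC48 have an exact match, and 0 of them were called, where 4.19% of all tested transcripts rose and 9.16% fell.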

How the data were processed

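Per the labels, RNA from 6 libraries was measured. The values deposited by the authors are TPM in 1 table. The submitters' processing notes name StringTie 2.0, HISAT2 2.0.5, cutadapt 2.6, R 3.6.0 and DESeq2, and the build sacCer3. What each tool did, which filters applied and whether strand was used is not given in the sources used here. Reads of antisense neighbours may therefore be mixed. Depth is unknown, so no counting interval is given. Columns were matched to samples by the labels' descriptions.

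TPM were analysed as log2(TPM + 1) in R 4.3.3 with limma 3.58.1, using its trended eBayes, over the 5938 transcripts averaging 1 TPM or more, two-sided, with Benjamini-Hochberg adjustment over all of them and a threshold of 0.05. Fold changes on this scale understate changes of low genes. The fit was tested on simulated data. Gene names, positions and sequences came from RefSeq's R64 annotation (31 of 32 subunits and 30 of 30 listed genes matched a row), read with Python 3.11.15, pandas 2.3.3, numpy 2.4.6, scipy 1.17.1 and matplotlib 3.10.9.

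Library values were given for called genes, catalytic subunits, RPN4, the highest and lowest log2 fold change of each part of the complex, and genes with a library 4-fold from both others. RPN12, DSK2, DDI1, CDC48 and MPO1 fall outside this rule and were added after their values were seen. The members, lists and rule were chosen with earlier results of these data known. Alternatives were pseudocounts of 0.1 and 5, no filter or a mean of 10 TPM, other scalings, feature sets and variance fits, the replicate number as a block, and each library removed in turn.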

Additional observations from a re-analysis of the deposited data

How the results depend on the processing

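Of the 19 alternatives, those that removed classes of transcripts also rescaled the rest to the TPM total of 1000000, and the others changed 1 choice each. Of 26S subunit genes, 5 were called under median-ratio scaling, 5 under quantile normalization, 0 without assembled transcripts and 0 without the intensity trend, and from 0 to 1 when a library was left out, against 1 as reported. Without dChr library 2 the 1 gene called was RPT5, lower in the dChr strain, and without control library 2 it was RPN6. The RPT5 values left in dChr libraries 1 and 3, 0.236 and 0.206 TPM, can be failed estimates. No strain difference is therefore read from the RPT5 call. Of the 30 listed genes, 5, 7 and 1 were called under median-ratio scaling, quantile normalization and without assembled transcripts, and from 1 to 2 when a library was left out, against 3. The cause was not tested, except that leaving out a library leaves fewer samples in the fit. The median log2 fold change of the subunit genes was 0.14, and 0.23 with quantile normalization and 0.064 without mitochondrial and non-coding transcripts, and from 0.09 to 0.18 when a library was left out. It was 0.14 over genes with no library far from its strain, an alternative chosen after seeing the data, as were those of MPO1. Over all 5938 tested transcripts 793 were called, 1142 under median-ratio scaling, 1116 under quantile normalization and 712 without the intensity trend. There were 511 of 5577 called without assembled transcripts and 1183 of 5396 with protein-coding genes alone. When a library was left out, from 354 to 599 of 5938 were called. Results for single genes gained a call 17 times and lost one 22 times, and 1080 others kept their side of the threshold; no called gene changed direction.

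With a replicate block in the model 1 subunit gene and 3 listed genes were called, as without it, with RPN6 at a limma adjusted p of 0.0297. After subtracting strain means, libraries that share a number correlated at 0.09, -0.08 and 0.12, so the numbers were not taken to pair the libraries, and 3 of the 6 libraries correlated best with their own number. TPM keeps no depth, which limits what can be said of genes near 0.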
